A study of Mus musculus with 2 samples.

Results

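Emx1, Emx2, Tbr1, Eomes, Fezf2, Bcl11b, Lhx2 and Neurod6 encode transcription factors that build the cerebral cortex, and their chromatin was examined here in a tissue that is not cortex, the embryonic midbrain. The 8 genes were chosen by name and found by symbol among 21911 protein-coding genes of the mouse annotation (GENCODE, mm10). For each gene, peaks of accessible chromatin were collected within 1 kb of any annotated transcript start, which is called the promoter below, and in the gene body with 50 kb on either side, which is called the gene window.

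Accessible chromatin was measured by DNase-seq. Nuclei are treated with the enzyme DNase I, which cuts mainly where DNA is free of nucleosomes, and sequencing finds the cuts. Samples were whole midbrain from embryos of the strain B6NCrl at day 14.5, with males and females pooled, and no genetic change or treatment is named. They formed 1 group of 2 biological replicates, given as separate biosamples with 1 common donor entry, and part of their spread may be technical. No cortex or other tissue was analysed here, so all comparisons are among genes and between the replicates.

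The cortex forms from the dorsal telencephalon, the pallium. Progenitors along the ventricle carry homeodomain factors such as Emx1, Emx2 and Lhx2, intermediate progenitors turn on the T-box factor Eomes, and newly born excitatory neurons turn on Tbr1, Fezf2, Bcl11b or Neurod6 according to their layer and stage. Genes of this kind often have CpG-rich promoters and are flanked by many enhancers, which are short accessible stretches bound by other transcription factors. In a bulk tissue, a site open in few cells and a site weakly open in many cannot be told apart.

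The 8 promoters were accessible in both replicates, most of them more weakly than the typical gene's promoter, and the gene windows held more accessible sites than those of most genes. The stretches below are the sequences behind that description: for each gene, the highest-ranked accessible site over 1 kb from any protein-coding start (a distal peak) that lay nearest to its own start and overlapped no annotated UTR. Each is a peak of 150 bp on GRCm38.p6, which is mm10, read 5′ to 3′ on the plus strand. Capitals mark exact matches to the 13 short motifs described further on.
Emx1 (chr6:85190396-85190545): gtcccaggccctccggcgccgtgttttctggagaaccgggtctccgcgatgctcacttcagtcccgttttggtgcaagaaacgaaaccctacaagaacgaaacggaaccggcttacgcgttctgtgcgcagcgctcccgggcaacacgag
Emx2 (chr19:59418136-59418285): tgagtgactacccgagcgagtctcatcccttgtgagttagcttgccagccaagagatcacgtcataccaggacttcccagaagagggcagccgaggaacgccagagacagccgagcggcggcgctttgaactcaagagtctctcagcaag
Tbr1 (chr2:61815636-61815785): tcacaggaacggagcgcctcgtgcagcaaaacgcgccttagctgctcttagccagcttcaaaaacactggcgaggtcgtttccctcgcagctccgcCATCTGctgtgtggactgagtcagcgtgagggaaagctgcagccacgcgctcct
Eomes (chr9:118489756-118489905): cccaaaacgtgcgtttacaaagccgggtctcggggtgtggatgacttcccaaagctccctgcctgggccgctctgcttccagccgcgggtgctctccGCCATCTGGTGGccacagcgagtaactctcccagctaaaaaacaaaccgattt
Fezf2 (chr14:12338156-12338305): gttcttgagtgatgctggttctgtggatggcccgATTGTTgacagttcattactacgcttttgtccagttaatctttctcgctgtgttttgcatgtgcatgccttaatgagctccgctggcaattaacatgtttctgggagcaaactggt
Bcl11b (chr12:108006336-108006485): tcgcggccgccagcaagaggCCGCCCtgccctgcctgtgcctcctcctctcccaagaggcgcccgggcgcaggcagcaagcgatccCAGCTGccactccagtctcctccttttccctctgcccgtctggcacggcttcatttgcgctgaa
Lhx2 (chr2:38395336-38395485): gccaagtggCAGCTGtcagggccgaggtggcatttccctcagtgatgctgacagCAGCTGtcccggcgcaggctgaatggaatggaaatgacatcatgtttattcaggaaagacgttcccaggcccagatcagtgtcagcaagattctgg
Neurod6 (chr6:55676996-55677145): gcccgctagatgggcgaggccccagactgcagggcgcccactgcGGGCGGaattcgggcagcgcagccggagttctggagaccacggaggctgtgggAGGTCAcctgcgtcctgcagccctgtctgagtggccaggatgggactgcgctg
Emx1's site lay in its intron, Emx2's and Bcl11b's upstream of the gene, and the other 5 downstream. The Emx1 and Emx2 stretches held none of the motifs. In the Eomes stretch an E-box and a CTCF match overlapped in 1 run of capitals, and Lhx2's held the E-box CAGCTG at 2 places.

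Promoter peaks are shown for Emx2 and Bcl11b, whose 5′ ends were the strongest of the 8. Again these are the highest-ranked promoter peaks with no UTR, so they are not the strongest peak of either gene.
Emx2 (chr19:59457436-59457585): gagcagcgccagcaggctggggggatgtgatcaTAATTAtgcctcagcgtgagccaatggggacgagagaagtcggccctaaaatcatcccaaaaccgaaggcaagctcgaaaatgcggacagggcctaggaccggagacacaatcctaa
Bcl11b (chr12:108002556-108002705): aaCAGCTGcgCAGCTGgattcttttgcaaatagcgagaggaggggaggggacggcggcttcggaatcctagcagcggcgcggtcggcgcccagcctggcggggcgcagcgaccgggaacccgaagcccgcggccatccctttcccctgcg
The Emx2 stretch, 861 bp before the 5′ end and inside the antisense gene Emx2os, held 1 homeodomain match, TAATTA. The Bcl11b stretch, 971 bp inside the gene, held 2 E-boxes, CAGCTG, beside each other.

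Replicate 1 had 709519 peaks on the nuclear chromosomes with a median value of 6, and replicate 2 had 267756 with a median of 51. The authors' value is a whole number per peak with a maximum of 148 and 150, and it was compared only within a replicate. A peak was called shared when a replicate 2 peak overlapped one of replicate 1 by at least 1 bp, which held for 171264. Read depth is unknown. All 6 midbrain region genes (En1, En2, Pax5, Pax7, Lmx1b and Otx2) had a shared promoter peak, as did 68.9% of all protein-coding genes. The cortical regulators had one too, so this count does not tell midbrain from cortex. Shared promoter peaks were found for 1 of 5 erythroid, 3 of 4 endothelial, 1 of 4 microglial, 3 of 4 mesenchymal and 0 of 4 liver marker genes, and the part of any other cell type or of neighbouring forebrain tissue in the results was not tested.

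All 8 cortical regulators had a shared promoter peak, as did 68.9% of protein-coding genes. At the gene 5′ end alone the count was again 8, against 64.3% of all genes. A hotspot, the authors' wider accessible region, lay over the promoter in both replicates for 8 of 8, against 70.1%. Strength set most of them below the typical gene. The median of their strongest promoter peaks was 38.5 in replicate 1 and 94.5 in replicate 2, against 60 and 122 over all genes and 91 and 137 over the genes with a shared promoter peak. Bcl11b and Lhx2 exceeded that last pair of medians in both replicates, so 2 of 8 did, against 30.5% of all genes.

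**Figure D1:**
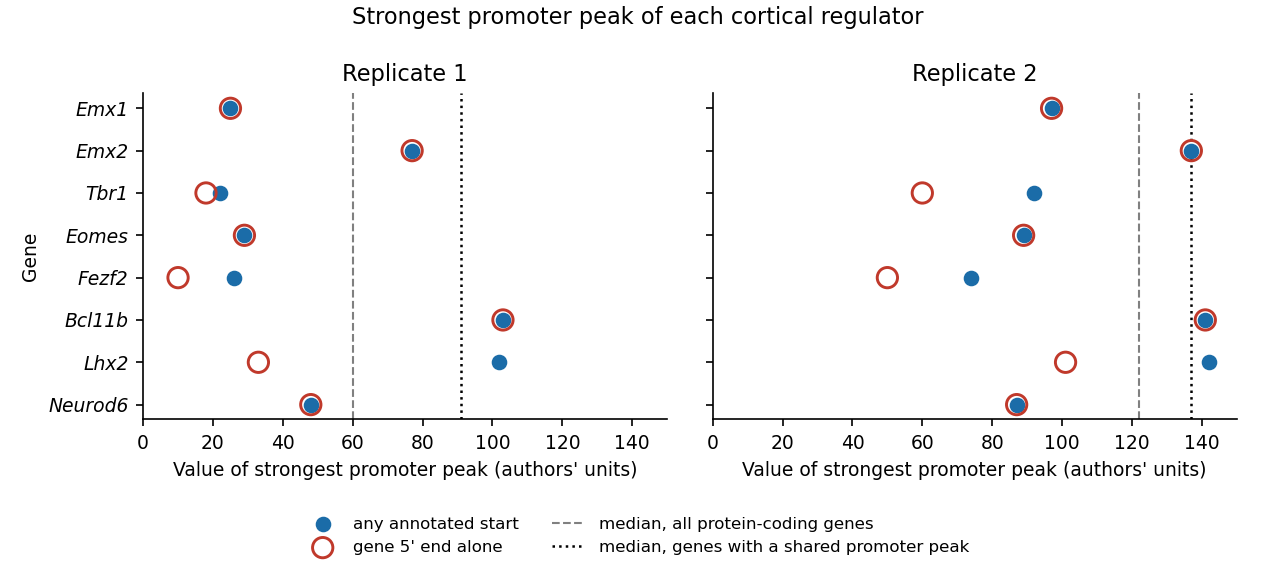
Value of the strongest peak (authors' units) within 1 kb of any annotated start (filled) or of the gene 5′ end alone (open ring) for each gene, in replicate 1 (left) and replicate 2 (right), with medians of all protein-coding genes (dashed) and of genes with a shared promoter peak (dotted). Emx2, Bcl11b and Lhx2 lie right of the dashed line in both panels, and Lhx2 moves left of it when the 5′ end alone is read.

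Among the progenitor factors, Emx1 (ENSMUSG00000033726.8, chr6:85187438-85204462, plus strand) encodes a homeodomain protein of pallial progenitors and their excitatory neurons. Its strongest promoter peak, 173 bp inside the gene, had values of 25 in replicate 1 and 97 in replicate 2. These placed Emx1 above 37.5% and 40.6% of genes. The hotspot over its 5′ end measured 268 bp in replicate 1 and 2263 bp in replicate 2, so the replicates differed in its extent.

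Emx2 (ENSMUSG00000043969.4, chr19:59458372-59465357, plus strand) encodes the related factor that helps set the caudal and medial areas of the cortex. Its strongest promoter peak, 239 bp inside the gene, had values of 77 and 137. It stood above 56.9% and 64.2% of genes. Emx2 had 8 shared promoter peaks, second to Lhx2's 11, and its 5′ hotspot reached 1276 bp and 5749 bp, the widest of the 8 in replicate 2. Emx2 has 3 annotated starts and Lhx2 has 7, so their promoter peak counts cover unlike lengths of sequence. Emx2 had a stronger 5′ peak than Emx1 in both replicates.

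Lhx2 (ENSMUSG00000000247.11, chr2:38339281-38369733, plus strand) encodes a LIM-homeodomain factor that specifies cortex and is also used in the eye and other parts of the brain. Its strongest promoter peak had values of 102 and 142, above 73.5% and 75.8% of genes. That peak lay 11750 bp inside the gene, near annotated internal starts 11478 and 12487 bp from the 5′ end. At the 5′ end itself Lhx2 reached 33 and 101, above 44.9% and 45.9% of genes. The high rank of Lhx2 thus belonged to internal starts, and its 5′ end ranked with the weaker genes. Both places were CpG-rich, with 107 CpG dinucleotides in the 2 kb around the 5′ end and 116 and 155 around the internal starts, against an all-gene median of 61.

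Eomes (ENSMUSG00000032446.14, chr9:118478212-118486132, plus strand), also known as Tbr2, encodes the T-box factor of intermediate progenitors. Its strongest promoter peaks had values of 29 in replicate 1 and 89 in replicate 2, and they were different peaks. The replicate 1 maximum lay upstream of the 5′ end at 761 bp, where replicate 2 had 78. The replicate 2 maximum lay inside the gene at 979 bp, where replicate 1 had 23. Eomes stood above 39.1% and 38.6% of genes although its 5′ end held 127 CpG.

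Tbr1 (ENSMUSG00000035033.15, chr2:61802930-61814114, plus strand) encodes the T-box factor of early-born and deep-layer neurons. Its strongest promoter peak, 4321 bp inside the gene near internal starts, had values of 22 and 92, above 36.2% and 39.4% of genes. The 5′ end of the annotated gene, which belongs to a noncoding transcript, gave 18 and 60. The replicates differed most here: the 5′ hotspot measured 165 bp in replicate 1 and 5204 bp in replicate 2. Around the first coding start, 1523 bp inside the gene, replicate 1 had 1 peak and replicate 2 had 7.

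Fezf2 (ENSMUSG00000021743.6, chr14:12342094-12348189, minus strand) encodes a zinc finger factor required for corticospinal neurons, and it had the lowest mean promoter percentile of the 8. Its strongest promoter peaks had values of 26 and 74, above 37.9% and 35.8% of genes. Both came from the internal starts 2230 and 2345 bp into the gene. The 5′ end alone gave 10 and 50. That start held 28 CpG, whereas the internal starts held 113 and 120.

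Bcl11b (ENSMUSG00000048251.15, chr12:107910403-108003602, minus strand), also called Ctip2, acts downstream of Fezf2 and is also a factor of striatal neurons and T cells. Its strongest promoter peak, 549 bp before the 5′ end, had values of 103 and 141, above 74.4% and 72.9% of genes. It had the strongest 5′ end of the 8 in both replicates and the most CpG there, 158. Its hotspot went against the others, with 4719 bp in replicate 1 and 2226 bp in replicate 2.

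Neurod6 (ENSMUSG00000037984.9, chr6:55677822-55681263, minus strand) encodes a basic helix-loop-helix factor of postmitotic pyramidal neurons. Its single shared promoter peak, 72 bp inside the gene, had values of 48 and 87. These placed it above 45.7% and 38.2% of genes. It was the CpG-poorest 5′ end of the 8, with 23 CpG, and the shortest gene.

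Ordered by mean percentile over the replicates, the promoters ran from Lhx2 at 74.7 and Bcl11b at 73.7 through Emx2 at 60.6 to Neurod6 at 41.9, Emx1 at 39.1, Eomes at 38.8, Tbr1 at 37.8 and Fezf2 at 36.9. Lhx2 and Bcl11b changed places between the replicates, and the last 5 lay close together with an order that also differed, so neighbours within these sets were not separated. Emx2 stood apart from the genes above and below it in both replicates. The hotspot at the 5′ end was wider in replicate 2 for 7 of 8 genes, all but Bcl11b, as it was for 60.8% of all genes. It reached the authors' cap of significance in both replicates for Emx2, Eomes, Bcl11b and Neurod6, so 4 of 8, against 56.7% of all genes.

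Distal peaks were defined as shared peaks centred over 1 kb from any protein-coding start. Of these, 1 in Emx1, 3 in Emx2 and 1 in Lhx2 overlapped a promoter window as well, at a start of a noncoding transcript or at the window's edge. The 8 gene windows held 164 of them, and the median per gene was 18 against 7 over all genes. Per 100 kb of window the medians were 15.5 and 5.02. Emx2 had the most with 31, followed by Bcl11b and Lhx2 with 29 each, Emx1 with 19, Fezf2 with 17, Eomes with 16, Neurod6 with 14 and Tbr1 with 9. Bcl11b's window spans 193.2 kb and the others 103.4 to 130.5 kb, so per 100 kb Emx2 led with 29.0, then Lhx2 with 22.2, and Bcl11b came to 15.0. All 8 had at least 9, against 39.4% of all genes, a limit set by the lowest of the 8.

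The replicates did not order the genes alike. In replicate 1 alone the distal counts were 86 for Emx1, 47 for Emx2, 22 for Tbr1, 65 for Eomes, 51 for Fezf2, 107 for Bcl11b, 48 for Lhx2 and 64 for Neurod6. In replicate 2 they were 26, 45, 19, 22, 28, 42, 54 and 23 in the same order. Bcl11b led in replicate 1 and Lhx2 in replicate 2, and Tbr1 came last in both. Lhx2 was the only gene with as many or more distal peaks in replicate 2, so 1 of 8, against 15.4% of all genes. Of all replicate 1 peaks in the 8 windows 38.8% were shared, and of replicate 2 peaks 63.2%, against 24.7% and 64.0% genome-wide.

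**Figure D2:**
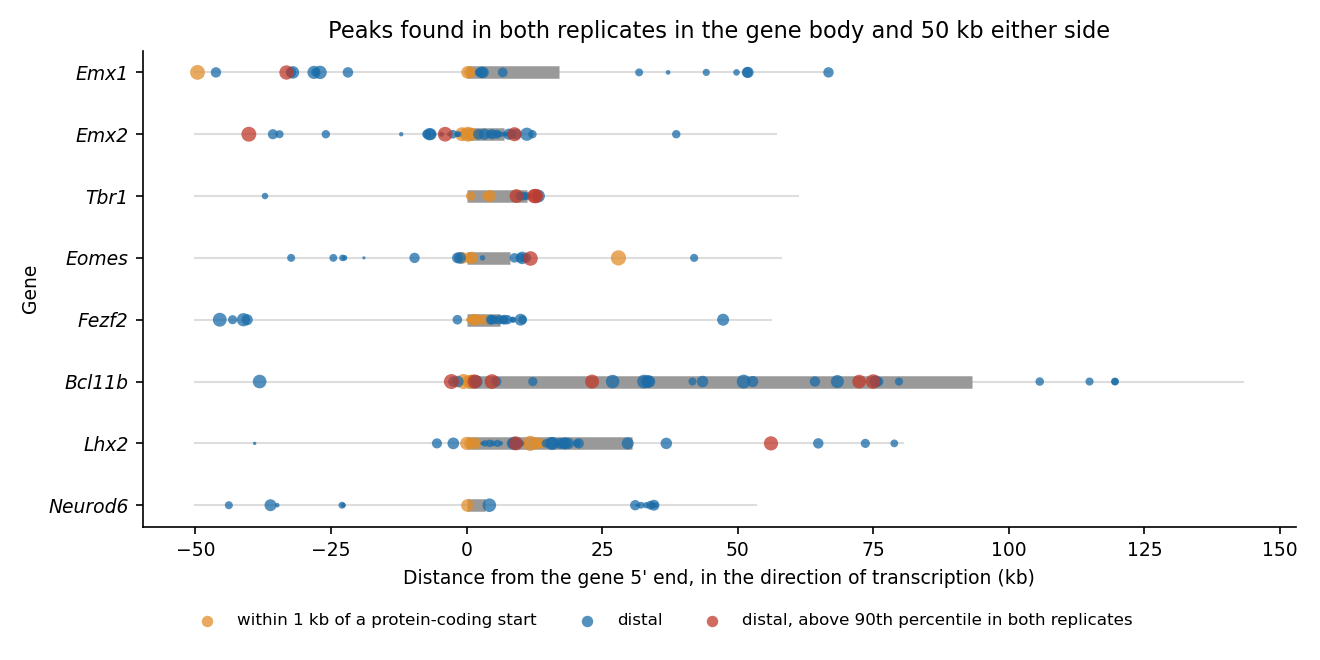
Shared peaks in each gene window by distance from the gene 5′ end in kb along the direction of transcription; the grey bar is the gene body and a larger dot has a higher mean percentile over the replicates. Emx2, Fezf2 and Lhx2 carry dense groups around the gene, Bcl11b's peaks spread through its long body, and Neurod6 has 8 peaks grouped 31 to 35 kb downstream of its 5′ end.

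Of the 164 distal peaks, 49 lay upstream of the gene, 63 in its body and 52 downstream, and 90 were within 20 kb of the 5′ end. For 154 the nearest protein-coding start was that of the gene itself. The 164 peaks had median values of 17 in replicate 1 and 64 in replicate 2, close to the 18 and 60 of all shared distal peaks. Over all peaks of each replicate, shared or not, the medians were 6 and 51. A distal peak was called strong when its value was above the 90th percentile of its replicate in both, that is above 24 and above 110. This scale ranks a peak among all peaks of its replicate, whereas the promoter percentiles above rank genes by their strongest promoter peak. The 2 scales cannot be compared directly. Neurod6's promoter peak, for example, ranked at 95.8 and 79.7 among all peaks. By this limit 16 of 164 were strong, or 9.76% (95% exact binomial interval 5.68 to 15.4, counting error only), against 7.98% of all shared distal peaks. At least 1 strong peak was found for 6 of 8 genes, against 49.4% of all genes.

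Emx1's only strong distal peak had values of 66 and 119 and lay 33267 bp upstream, in the transcribed pseudogene Spr-ps1. It and 2 weaker peaks in Spr-ps1 are uncertain, because reads may be shared with the near copy Spr, whose own start peak, 49627 bp upstream of Emx1, had 73 and 135. Without those 3 peaks Emx1 had 16 distal peaks. A further 7 of its peaks fell inside the next gene, Sfxn5. Only 4 of the 19 were within 20 kb of the 5′ end.

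Around Emx2, 26 of 31 distal peaks lay within 20 kb, and 12 lay in the antisense gene Emx2os. Its 3 strong peaks were 40161 bp upstream with values of 88 and 136, 3961 bp upstream in Emx2os with 74 and 131, and 8819 bp downstream of the 5′ end with 50 and 116. The far upstream peak is the one printed above, and it outranked every promoter peak of the gene in replicate 1. No neighbouring protein-coding start lay in the Emx2 window.

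Lhx2 had 21 of its 29 distal peaks inside the gene. The 2 strong ones were 56130 bp from the 5′ end, beyond the gene, with values of 48 and 121, and 9090 bp inside it with 43 and 114. Both were much weaker than the peak at the internal starts.

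Eomes had 1 strong distal peak, at 11619 bp, with values of 69 and 125, well above its promoter in both replicates. Another 5 weaker peaks stood between 8819 and 10999 bp, all downstream of the gene. The strongest peak in the window, 102 and 145 at 27999 bp, was the start of Golga4, a Golgi protein gene, and was not counted as distal.

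Tbr1 had the fewest distal peaks, yet 3 of its 9 were strong. They stood at 9181 bp with values of 41 and 112, at 12461 bp with 58 and 120 and at 12781 bp with 65 and 121. With 5 others they formed a cluster from 9181 to 13261 bp across the end of the gene, and a single peak lay elsewhere in the window, inside the proteasome gene Psmd14. Each of the 3 was stronger than any Tbr1 promoter peak in both replicates.

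Fezf2 had no strong distal peak. Its highest, 55 and 109, lay 45522 bp upstream within Cadps, a gene of neurotransmitter release, and missed the limit in replicate 2 only. Another 11 of its 17 stood within 20 kb downstream of the 5′ end, none above 24 in replicate 1, and 1 stood 1702 bp upstream. The overlapping peaks at 8458 and 8578 bp shared 1 replicate 1 peak, so the 17 rested on 16 of replicate 1.

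Bcl11b had 6 strong distal peaks, the most of the 8. They included 2809 bp upstream with values of 94 and 136, 4671 bp into the gene with 89 and 127 and 74951 bp into it with 72 and 122. The body held 21 of its 29 distal peaks, and all 29 had Bcl11b as the nearest protein-coding gene. In 1 place adjacent replicate 2 peaks overlapped a single replicate 1 peak, so the 29 rested on 28 of replicate 1.

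Neurod6 had no strong distal peak. Its highest, 43 and 106 at 4192 bp, just past the end of the gene, lay under the limit in replicate 2. The group of 8 peaks 31092 to 34872 bp from the 5′ end had values of 7 to 27 and 31 to 68. The remaining 5 lay upstream, the nearest at 22728 bp.

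Close to the 5′ end the genes differed most. Within 10 kb, counting promoter and distal peaks together, Emx2 had 28 shared peaks, Lhx2 17, Fezf2 16, Bcl11b 11, Eomes 9, Emx1 6, Tbr1 5 and Neurod6 2. The all-gene median was 2. At least 10 were found for 4 of 8, against 2.97% of all genes. Only 18 of the 21911 genes, Emx2 included, had at least as many as Emx2. The number of sites and the strength of the start went together in some genes and not in others. Emx2 had the most peaks and the second strongest 5′ end, Bcl11b had 11 peaks and the strongest, and Fezf2 had 16 peaks and the weakest. En2, the midbrain reference, had 13 peaks within 10 kb with a promoter of 111 and 141. None of the 28 midbrain regulators compared below exceeded these promoter values in either replicate. The medians of that list were 50 and 117.5, so En2 does not stand for it.

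Counted in each replicate alone, peaks within 10 kb numbered 10 and 11 for Emx1, 38 and 39 for Emx2, 6 and 20 for Tbr1, 21 and 16 for Eomes, 16 and 28 for Fezf2, 29 and 14 for Bcl11b, 25 and 26 for Lhx2 and 3 and 9 for Neurod6. For 6 of 8 genes replicate 2 had as many or more despite its shorter list, against 34.6% of all genes. Genes with no peak within 10 kb in either replicate could not be counted toward that share but stayed among the 21911. Tbr1, Fezf2 and Neurod6 showed the widest excess of replicate 2, and Bcl11b and Eomes the reverse. Emx1, Emx2 and Lhx2 had nearly equal counts.

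**Figure D3:**
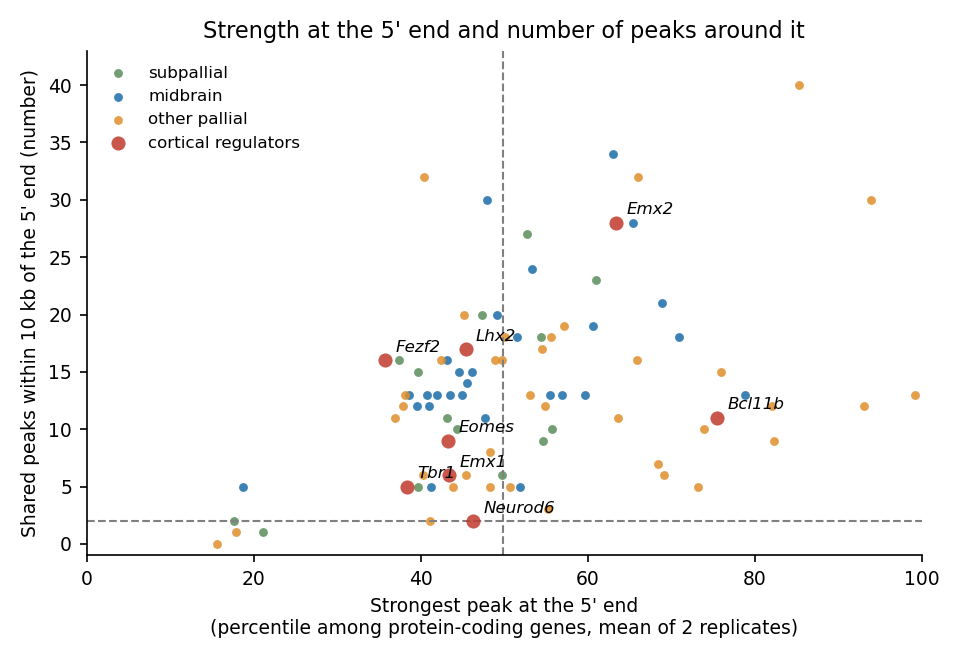
Shared peaks within 10 kb of the gene 5′ end (vertical) against the percentile of the strongest peak at the 5′ end among protein-coding genes, mean of the replicates (horizontal), for the 8 cortical regulators and 3 other gene lists; dashed lines are all-gene medians. Emx2 lies high with 28 peaks, Fezf2 combines 16 peaks with the lowest percentile of the 8, and Neurod6 lies on the all-gene line at 2.

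The 8 genes were set beside 38 other pallial regulators such as Pax6 and Neurog2, 28 midbrain regulators such as En1 and Otx2 and 14 subpallial regulators such as Dlx1 and Gsx2. A shared promoter peak was found for 38 of 38, 28 of 28 and 13 of 14. Median strongest promoter values were 66 and 127 for the pallial, 50 and 117.5 for the midbrain and 44.5 and 116.5 for the subpallial list, so the 8 had the lowest medians of the 4 lists in both replicates. Median distal counts were 27, 23 and 14.5, with 18 for the 8 cortical regulators between the last pair. Window lengths differed, with medians of 122.1 kb for the pallial, 109.0 kb for the midbrain and 105.6 kb for the subpallial list and 109.6 kb for the 8. Per 100 kb of window the median distal counts were 14.9, 18.9 and 14.2 in the same order, against 15.5 for the 8. By this measure the 8 did not lie below the pallial list. Within 10 kb the medians were 12, 13 and 10.5, against 10 for the 8. These are descriptions of lists that overlap widely, with no test between them.

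**Figure D4:**
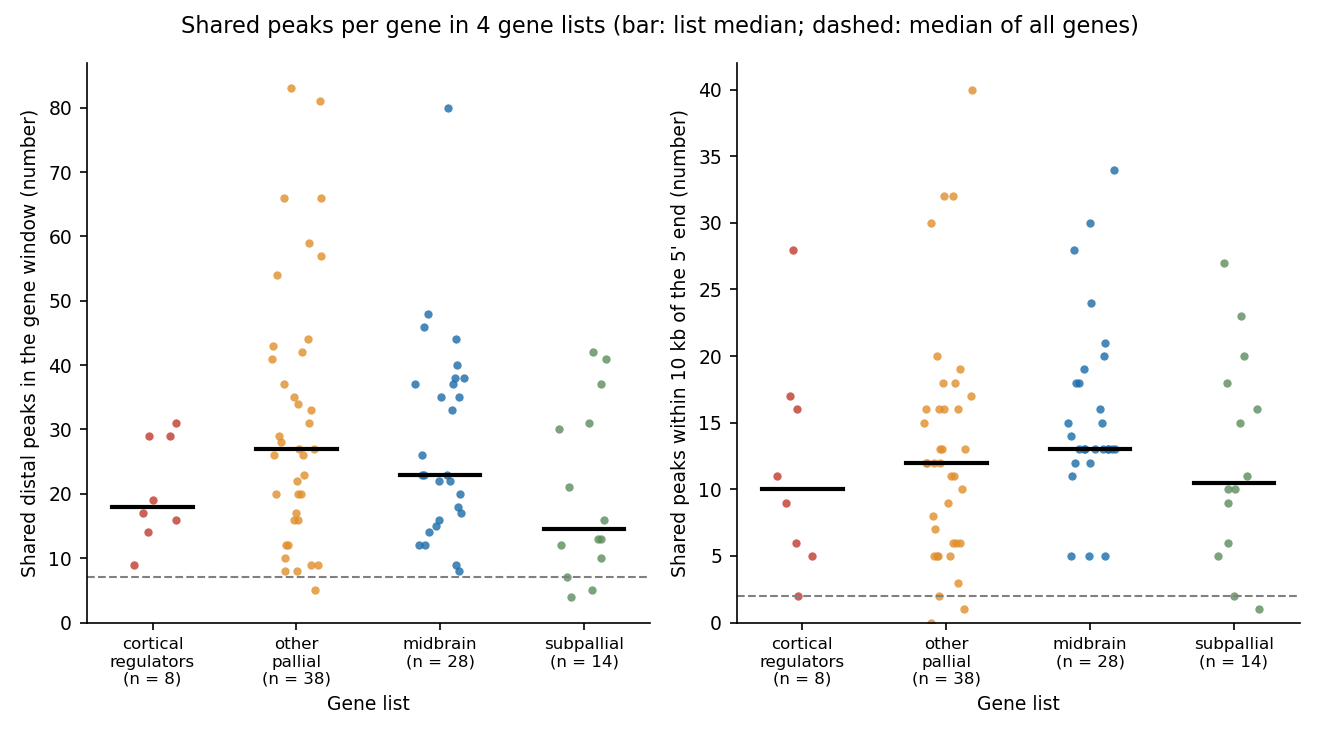
Number of shared distal peaks per gene window (left) and of shared peaks within 10 kb of the 5′ end (right) for each gene of 4 lists; black bars are list medians and the dashed line the median of all genes. The 8 cortical regulators run from 9 to 31 on the left and from 2 to 28 on the right, inside the range of the other pallial genes, and the 8 distal counts all lie above the all-gene median of 7.

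Likeness to single genes was measured over 4 percentiles, the strongest promoter value and the distal count in each replicate, as the Euclidean distance to the 80 genes of those lists. Nearest to Emx1 was Fgf8, at 21 and 81 with 96 and 32 distal peaks. Emx2 was nearest to Otx2, with a promoter of 79 and 134 and distal counts of 46 and 45, the closest pair of all at a distance of 4.79 percentile points. Tbr1 was nearest to Fezf1, and Eomes and Fezf2 were both nearest to Wnt1. Bcl11b was nearest to Cux2, Lhx2 to En2 and Neurod6 to Pou4f2, the loosest pair at 9.80. Otx2, Wnt1, Fgf8, En2 and Pou4f2 came from the midbrain list, and Fezf1 and Cux2 from the pallial list. The 80 candidates were 38 pallial, 28 midbrain and 14 subpallial genes, and no preference among the lists was tested.

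In base composition, the distal peaks of the 8 had a median GC content of 53% and 4 CpG per peak, against 49.3% and 2 over all 140426 shared distal peaks. Exact matches on either strand were counted for 13 motifs. Motifs of families among the 8 factors were TAATTA of homeodomain proteins, AGGTGT of T-box proteins and the E-boxes CAGATG and CAGCTG of helix-loop-helix proteins. Searched beside them were TAATCC for OTX proteins, then AACAAT for SOX proteins. Zinc finger and receptor motifs were GGGCGG for SP and KLF proteins, then AGGTCA for nuclear receptors. GATA proteins were searched by their usual hexamer AGATAA. The longer consensus motifs of NFI, CTCF, NRF1 and EBF completed the set. Matches of different motifs may overlap. The E-box CAGATG, read by Neurod and Neurog factors, was in 16.5% of the 164 peaks (95% exact interval 11.1 to 23.0) and 15.4% of all shared distal peaks. TAATTA, read by Emx and Lhx proteins, was in 4.27% (1.73 to 8.60) against 5.75%, and the T-box core in 3.05% (0.997 to 6.97) against 5.35%. The widest gap upward in percentage points was GGGCGG, with 9.15% (5.21 to 14.6) against 5.57%, found around Emx1, Emx2, Tbr1, Bcl11b and Neurod6. NFI was in 0 of 164 peaks, against 0.208% of all shared distal peaks. The exact interval for that count reaches 2.22%, and the limit of 3 counts of the total is 1.83%. For all 13 motifs the interval of the 8 genes' peaks held the share of all distal peaks. These intervals cover counting error only and treat the 164 peaks as independent, though they come from 8 gene windows. A difference in motif content was not tested.

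Peaks found in 1 replicate only reached lower values than the strongest shared ones. The highest peak seen in replicate 1 alone was 28, in Bcl11b, and the highest seen in replicate 2 alone was 96, in Tbr1 at 12221 bp, next to its strong cluster. No replicate 2 peak above the 90th percentile in the 8 windows lacked a partner in replicate 1. In replicate 1 unshared peaks above that percentile numbered 1 each in Emx1, Tbr1 and Eomes, 4 in Bcl11b and 0 in Emx2, Fezf2, Lhx2 and Neurod6. The genome-wide share of such unshared peaks is not given here, so these counts do not set the 8 windows apart.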

How the data were processed

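Each replicate has its own deposited peak list and hotspot list, per the files deposited with the samples, so replicates were not pooled. Peaks were called on mm10, per the labels, and the aligner and caller, with their versions, were not given in the sources used here. The peak value is a whole-number score that the authors deposited, not scaled to a common depth, so only ranks and values within a replicate were used. Hotspots carry the authors' −log10 q value, from q = 0.05 to a cap of 100. No read depth is known, and the number of peaks sets the precision.

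From these files, nuclear peaks were matched between replicates (at least 1 bp) and described by the replicate 2 interval. Promoters were 1000 bp either side of any transcript start in GENCODE M21. Sequence was GRCm38.p6, and UTRs came from GENCODE and RefSeq. A gene's percentile is the percent of the 21911 genes with a lower value, a gene with no peak counting as 0. The software was pandas 2.3.3 with numpy 2.4.6, scipy 1.17.1 and matplotlib 3.10.9 under Python 3.11.15, and the overlap and counting steps were tested on simulated data. There is 1 group, so no test between groups exists and none over genes was made. Intervals are Clopper-Pearson.

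Named were the 8 genes, neighbours whose start lies in a window, En2 as a regional reference, and each gene's nearest list gene. A further reference gene is not reported here. Sfxn5, Spr-ps1 and Emx2os, and Pax6, Neurog2, Dlx1 and Gsx2 as examples, were named outside this rule after values were seen. The members and lists were chosen with earlier results of these data known. The 10 kb window, the limits for strong peaks and for at least 10 peaks, and the per-replicate comparisons were chosen after seeing the data.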

Additional observations from a re-analysis of the deposited data

How the results depend on the processing

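All 8 genes kept a shared promoter peak under 500 bp and 2000 bp windows, the 5′ end alone, overlap of at least 50%, a replicate 1 list of replicate 2's length, either replicate alone and hotspots. Of all genes, 64.3% to 75.8% had one under these settings. With the strongest 25% of each list 7 did, against 63.1% of all genes, and Fezf2 did not. The median distal count of 18 (all genes 7) became 4.5 (2) with the strongest 25% and 11.5 (3) in 20 kb windows. It was 27 (11) without replicate 1 and 57.5 (22) without replicate 2. There each replicate's own unshared peaks enter. The median promoter percentile of 40.5 became 44.4 at the 5′ end alone, and lay from 40.0 to 42.4 when either replicate was left out. Lhx2 fell from 74.7 to 45.4 at the 5′ end alone. Emx1's distal count of 19 became 5 in 20 kb windows, 31 in 100 kb windows and 12 with only peaks nearest to its own start. Neurod6's 14 became 1 in 20 kb windows and 9 with 50% overlap. Among settings chosen after seeing the data, the median of 10 peaks within 10 kb lay from 18 to 18.5 when either replicate was left out (all genes 4 and 5), and the strong share of 9.76% became 23.8% above the 80th percentile (all distal peaks 22.0%) and 1.83% above the 95th (1.86%). No paired analysis was possible because the samples form 1 group. The unknown read depth and the 2 replicates limit every value.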
